A study of Mus musculus with 4 samples.

Results

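The 10 genes described here encode the machinery of MHC class I antigen presentation and were chosen by name. They are the class I chains H2-K1, H2-D1, H2-T23 and H2-M3, the light chain B2m, the loading genes Tap1, Tap2, Tapbp and Erap1, and the activator Nlrc5. All 10 were found among the 19308 genes listed for every library, and all 10 were among the 16956 genes with enough counts to test. RNA sequencing of total RNA was done on colonic mucosa of Itch KO mice, which lack the E3 ubiquitin ligase ITCH, and of WT mice, with 2 libraries in each group. The WT libraries are labelled C57BL/6, and for the Itch KO mice the labels give no strain, and for neither group an age or sex. The protocol calls only the Itch KO mucosa inflamed, whereas the labels give all 4 libraries the state of inflammation. The labels do not tie a library to its own animal. The p-values below therefore rest on the spread between libraries, which may be technical.

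Class I molecules carry peptides of the cell's own proteins to the cell surface, where CD8 T cells and natural killer cells read them. Peptides cut by the proteasome are pumped into the endoplasmic reticulum by the TAP1-TAP2 transporter, trimmed by ERAP1, and loaded with the help of tapasin, the product of Tapbp, onto a heavy chain paired with beta-2-microglobulin. NLRC5 is the transactivator of these genes and acts at a promoter module of W/S, X1, X2 and Y boxes. Interferon acts at a separate element close by. Gut epithelium and leukocytes both express class I molecules.

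The promoters are shown because the module through which NLRC5 acts can be read in them. RefSeq promoter windows of the build GRCm38.p6 were at hand for 8 of the 10 genes, all but Nlrc5 and Tap2. In the 250 bases before the start, both strands were searched for an interferon element (GAANNGAAA), the canonical interferon element (GAAA and a further GAAA after any 2 bases), the X2 box core (TGACG), the Y box core (CCAAT) and a STAT element (TTCNNNGAA). The canonical form was added after the windows had been read. The 160 bases before the start are given 5′ to 3′ on the strand of the gene for the 4 genes that held an X2 core followed by a Y core at 1 fixed distance. Capitals mark the interferon elements and the X2 and Y cores, and the cores of these motifs did not overlap each other.
H2-K1: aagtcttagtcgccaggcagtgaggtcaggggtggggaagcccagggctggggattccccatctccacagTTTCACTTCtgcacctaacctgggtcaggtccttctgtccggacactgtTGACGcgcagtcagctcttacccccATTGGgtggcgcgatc
H2-D1: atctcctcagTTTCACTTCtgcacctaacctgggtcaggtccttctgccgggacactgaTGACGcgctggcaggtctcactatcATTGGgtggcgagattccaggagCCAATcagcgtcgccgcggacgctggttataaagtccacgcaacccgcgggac
H2-M3: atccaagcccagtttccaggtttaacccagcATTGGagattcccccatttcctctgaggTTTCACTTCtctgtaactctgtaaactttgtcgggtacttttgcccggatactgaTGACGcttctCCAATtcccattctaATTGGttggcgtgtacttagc
B2m: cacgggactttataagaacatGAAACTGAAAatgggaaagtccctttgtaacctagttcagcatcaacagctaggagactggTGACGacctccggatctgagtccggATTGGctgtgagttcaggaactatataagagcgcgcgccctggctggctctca
These windows lie at chr17:34000348-34000507 (minus strand) for H2-K1, chr17:35262934-35263093 (plus strand) for H2-D1, chr17:37270074-37270233 (plus strand) for H2-M3 and chr2:122147527-122147686 (plus strand) for B2m. The starts are RefSeq's, whereas the gene positions given below are GENCODE's. The H2-D1 window lies within its gene position, and those of H2-M3 and B2m reach into theirs. In all 4 windows, TGACG was followed 25 bases further on by ATTGG, the Y core read on the other strand. The X2 core began 41 bases before the start in H2-K1, 101 in H2-D1, 46 in H2-M3 and 78 in B2m. H2-K1, H2-D1 and H2-M3 also held TTTCACTTC, the interferon element on the opposite strand, upstream of the X2 core, and B2m held the canonical form GAAACTGAAA there. The spacing was noticed after the windows had been read, and it was found in 18 of 32851 windows of the table, or 0.0548%. Alone, the X2 core was in 17.8% of all windows and in 5 of the 8, the Y core in 33.8% and in 7 of the 8, the interferon element in 6.31% and in 3 of the 8, and the STAT element in 7.02% and in 1 of the 8. The canonical interferon element was in 2.98% of all windows and in 2 of the 8, B2m and H2-T23. Tap1 held an X2 core 86 bases before its start without a Y core at that distance, and the Erap1 window held none of the 5 motifs. A match is a description of the letters and does not show that a factor was bound.

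**Figure D1:**
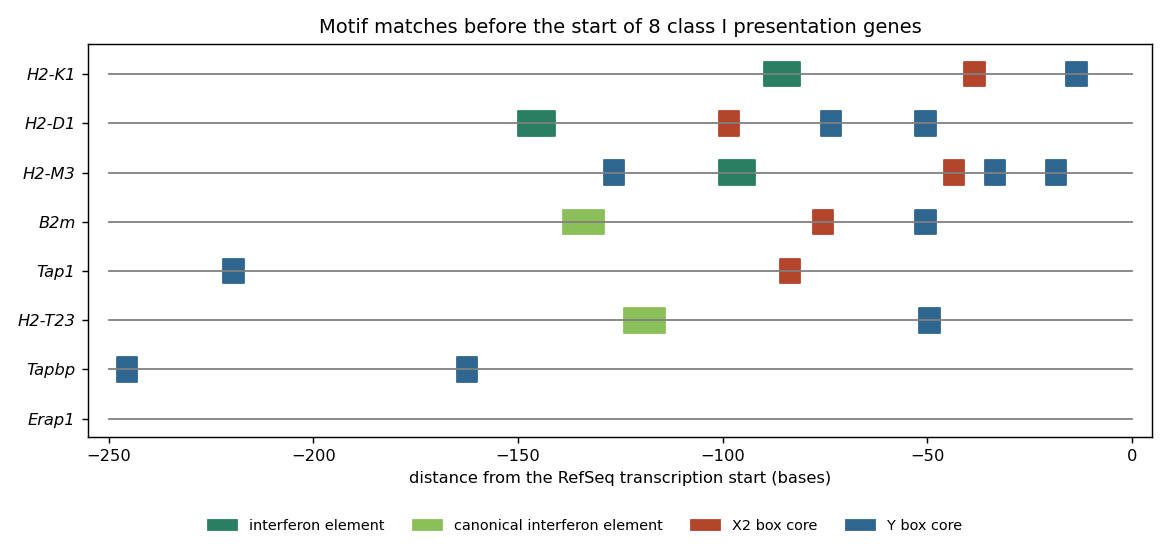
Matches to the interferon elements, the X2 box core and the Y box core in the 250 bases before the RefSeq start of 8 class I presentation genes, with distance from the start in bases on the x axis and 1 line per gene. H2-K1, H2-D1, H2-M3 and B2m hold an X2 core with a Y core 25 bases downstream, and Erap1 holds no match.

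Over the shared genes the libraries held 8181193 and 9463759 counts in Itch KO mucosa and 9674531 and 12199709 in WT mucosa. Levels are given as CPM, the count as a share of the library scaled to the usual unit with edgeR's TMM factors, and log2 fold changes are Itch KO over WT. Itch itself was at 11.9 and 13.4 CPM in Itch KO libraries and at 204 and 183 CPM in WT libraries. edgeR's quasi-likelihood test called 0 genes in either direction at a Benjamini-Hochberg adjusted p below 0.05. The unadjusted p was below 0.05 for 1729 higher genes (10.2% of those tested) and 1614 lower ones (9.52%). limma voom also called 0 genes, and DESeq2 called 891 higher (5.47%) and 815 lower.

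Class I presentation genes were higher in Itch KO mucosa, with a graded size from Nlrc5 down to Tapbp, and Erap1 was the exception. Both Itch KO libraries lay above both WT libraries for 9 of the 10 genes, where 30% of all tested genes did so, and 0 of the 10 lay below, where 26% of all tested genes did. The log2 fold change was above 0 for 9 of the 10 and for 50.6% of all tested genes. The shares of 30% and 50.6% were larger among genes with many counts per kb of exon, as given below. The median log2 fold change was 0.50 over the 10 genes and 0.01 over all tested genes. None of the 10 was called by edgeR, with adjusted p-values of 0.131 to 0.716, but 7 had an unadjusted p below 0.05, all of them higher, against 10.2% of all tested genes. DESeq2 called 3 of the 10, Nlrc5, Tap1 and H2-M3, all higher, against 5.47% of all genes it tested. Without Itch KO replicate 2 DESeq2 called 0 of them, without WT replicate 2 only Nlrc5, and without WT replicate 1 or Itch KO replicate 1 both Nlrc5 and Tap1.

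**Figure D2:**
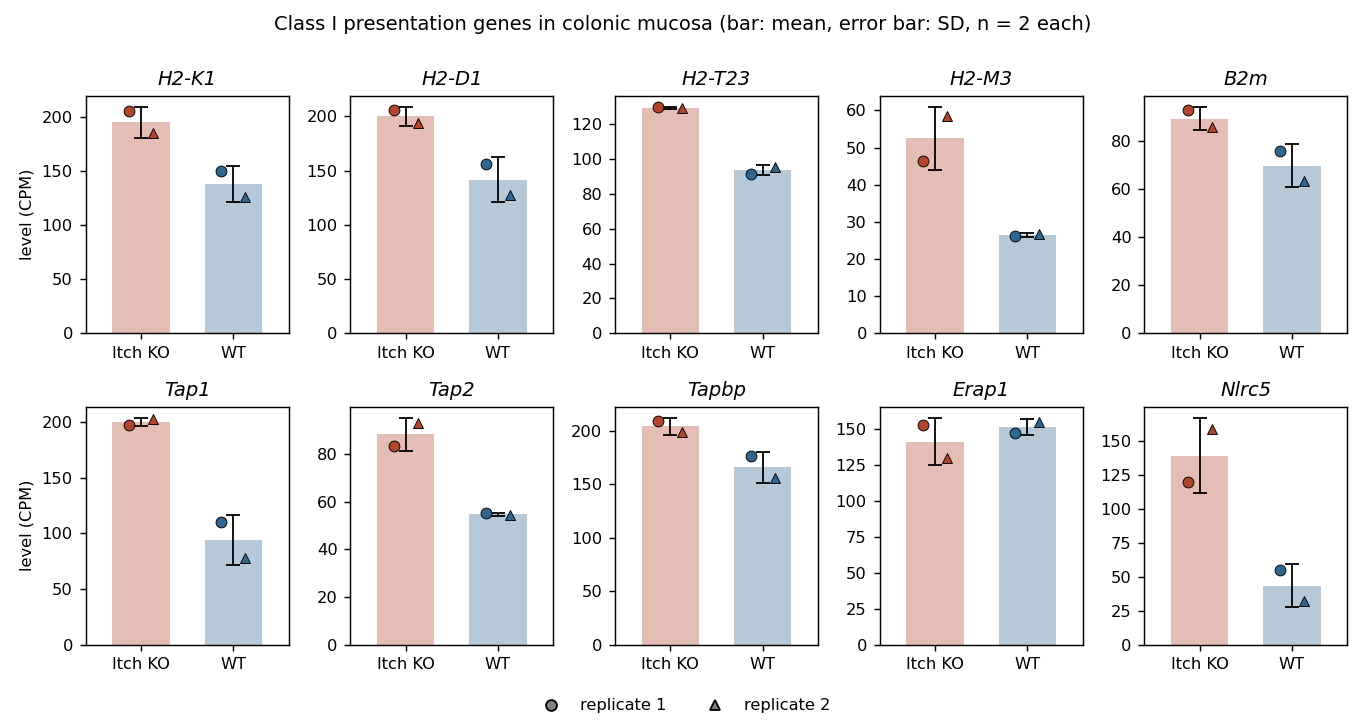
Level of each of the 10 class I presentation genes in CPM in Itch KO and WT colonic mucosa, with bars for the mean, error bars for the SD (n = 2 each) and points for the libraries. The Itch KO libraries stand above the WT libraries for every gene except Erap1, and Nlrc5 differs most, at 119.6 and 159 CPM against 54.5 and 32.3 CPM.

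The class I heavy chains form the peptide-binding groove. H2-K1 (ENSMUSG00000061232, GRCm38 chromosome 17, 33996017 to 34000347, minus strand), a classical chain that presents peptides to CD8 T cells, was at 205 and 185 CPM in Itch KO libraries and at 149.7 and 126 CPM in WT libraries. H2-D1 (ENSMUSG00000073411, chromosome 17, 35262730 to 35267499, plus strand), the other classical chain of the C57BL/6 strain, was at 206 and 194 CPM in Itch KO libraries and at 156 and 127 CPM in WT libraries. The groups did not overlap for either gene, and the WT libraries stood further apart than the Itch KO libraries for H2-D1. Both genes had a log2 fold change of 0.50 (SE 0.15, edgeR adjusted p = 0.209 for H2-K1 and SE 0.16, edgeR adjusted p = 0.216 for H2-D1). The ratio of H2-K1 to H2-D1 counts was 0.993 and 0.952 in Itch KO libraries and 0.957 and 0.989 in WT libraries, so the ranges of this ratio overlapped.

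The nonclassical chains differed among themselves. H2-T23 (ENSMUSG00000067212, chromosome 17, 36029773 to 36032855, minus strand) encodes Qa-1, which displays class I leader peptides to the inhibitory receptor CD94-NKG2A. It was at 129.8 and 129 CPM in Itch KO libraries and at 91.4 and 95.6 CPM in WT libraries, with the Itch KO replicates closer together than for the other 3 chains (log2 fold change 0.47, SE 0.11, edgeR adjusted p = 0.158). H2-M3 (ENSMUSG00000016206, chromosome 17, 37270220 to 37274484, plus strand) presents N-formylated peptides of bacterial and mitochondrial origin. It was at 46.4 and 58.5 CPM in Itch KO libraries and at 26.1 and 26.8 CPM in WT libraries (log2 fold change 0.99, SE 0.21, edgeR adjusted p = 0.137, DESeq2 adjusted p = 0.033). H2-M3 was 1.98 times its WT level in Itch KO mucosa and H2-T23 1.38 times. The ratio of H2-M3 to H2-T23 counts was 0.358 and 0.453 in Itch KO libraries and 0.286 and 0.281 in WT libraries, which did not overlap. With 2 libraries against 2, an exact two-sided permutation test of such a ratio cannot go below p = 0.333.

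B2m (ENSMUSG00000060802, chromosome 2, 122147686 to 122153083, plus strand) encodes the light chain that every class I heavy chain needs to reach the surface. It was at 92.5 and 85.6 CPM in Itch KO libraries and at 75.9 and 63.2 CPM in WT libraries. The groups did not overlap, but the difference was among the smallest of the 10 genes (log2 fold change 0.36, SE 0.15, edgeR adjusted p = 0.291). The B2m value was 0.23 without WT replicate 2 and 0.12 with each library's trend on exonic length removed. H2-K1 counts were 2.22 and 2.16 times B2m counts in Itch KO libraries and 1.97 and 1.99 times in WT libraries, which also did not overlap.

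Tap1 and Tap2 encode the paired subunits of the peptide transporter. Tap1 (ENSMUSG00000037321, chromosome 17, 34187553 to 34197225, plus strand) was at 197 and 202 CPM in Itch KO libraries and at 110.1 and 77.7 CPM in WT libraries. This is a difference of 1.09 on the log2 scale (SE 0.21, edgeR adjusted p = 0.131, DESeq2 adjusted p = 0.000992), and the spread lay in the WT group. Tap2 (ENSMUSG00000024339, chromosome 17, 34203527 to 34216321, plus strand) was at 83.4 and 93.1 CPM in Itch KO libraries and at 55.2 and 54.2 CPM in WT libraries (log2 fold change 0.69, SE 0.13, edgeR adjusted p = 0.131, DESeq2 adjusted p = 0.0523). Tap1 counts were 2.36 and 2.17 times Tap2 counts in Itch KO libraries and 1.996 and 1.43 times in WT libraries, without overlap. Tap1 shares 212 exonic bases with the divergent gene Psmb9, and Tap2 shares 14.1% of its exonic length with the antisense transcript Gm15821. The strand setting of the counting is not given, so reads from those stretches cannot be told apart.

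Tapbp and Erap1, which act on the trimming and loading of the peptide, differed least. Tapbp (ENSMUSG00000024308, chromosome 17, 33915899 to 33929292, plus strand) was at 209.6 and 199 CPM in Itch KO libraries and at 176 and 156 CPM in WT libraries (log2 fold change 0.30, SE 0.14, edgeR adjusted p = 0.324). Erap1 (ENSMUSG00000021583, chromosome 13, 74639568 to 74693201, plus strand) was at 153 and 129.5 CPM in Itch KO libraries and at 147 and 155 CPM in WT libraries. Its groups overlapped, and its log2 fold change was -0.10 (SE 0.14, edgeR adjusted p = 0.716). The sign of that value turned to 0.024 without Itch KO replicate 2 and to 0.046 with each library's trend on exonic length removed. Tapbp shares 24.9% of its exonic length with the antisense transcript Gm19412, and Erap1 shares 11.5% of its own with Cast on the other strand. Tap1 counts were 0.941 and 1.02 times Tapbp counts in Itch KO libraries and 0.625 and 0.499 times in WT libraries.

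Nlrc5 (ENSMUSG00000074151, chromosome 8, 94434356 to 94527272, plus strand), the transactivator, had the largest difference of the 10 genes. It was at 119.6 and 159 CPM in Itch KO libraries and at 54.5 and 32.3 CPM in WT libraries, a mean of 139 ± 27.6 CPM in Itch KO mucosa and 43.4 ± 15.7 CPM in WT mucosa (SD, n = 2 each). Replicates differed in both groups, and the lower Itch KO library was still above the higher WT library. The log2 fold change was 1.68 (SE 0.32, edgeR adjusted p = 0.131, DESeq2 adjusted p = 0.000164), and 5.7% of all tested genes had a larger one. It was 2.13 without WT replicate 1 and 1.35 without WT replicate 2. Nlrc5 counts were 0.583 and 0.858 times H2-K1 counts in Itch KO libraries and 0.364 and 0.257 times in WT libraries, so the activator differed by more than its target in every pairing of libraries.

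Per length of exon, the order of the levels was led by the light chain in both groups. B2m averaged 104 ± 5.67 CPM per kb in Itch KO mucosa and 80.8 ± 10.4 in WT mucosa, H2-D1 77.6 ± 3.35 and 55.0 ± 8.0, and H2-K1 66.3 ± 4.86 and 46.9 ± 5.74 (SD, n = 2 each). Tapbp followed at 56.3 ± 2.15 CPM per kb in Itch KO mucosa and 45.8 ± 3.98 in WT mucosa, and H2-T23 at 44.8 ± 0.184 and 32.4 ± 1.02. In WT mucosa the neighbours H2-D1, H2-K1 and Tapbp did not differ beyond their SDs. Tap1 and H2-M3 stood level in Itch KO mucosa, at 36.5 ± 0.661 and 36.5 ± 5.91 CPM per kb, and Tap1 was at 17.2 ± 4.18 and H2-M3 at 18.4 ± 0.331 in WT mucosa. Both were above Erap1 in Itch KO mucosa, where it averaged 19.4 ± 2.25 CPM per kb, and below it in WT mucosa, where it averaged 20.8 ± 0.763. In WT mucosa the SDs of Erap1 and Tap1 overlapped. Tap2, at 23.3 ± 1.8 CPM per kb in Itch KO mucosa and 14.5 ± 0.18 in WT mucosa, and Nlrc5, at 16.4 ± 3.25 and 5.11 ± 1.85, completed the order. The SDs of Tap2 and Erap1, and of Erap1 and Nlrc5, overlapped in Itch KO mucosa, as did those of Tap1 and Tap2 in WT mucosa.

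The differences are set here beside read density, and a cause was not tested. Among the tested genes with a known exonic length, the densest 1% had a median log2 fold change of 0.20, and the sparsest 10% one of -0.49, so dense genes stood higher in Itch KO libraries as a class. Both Itch KO libraries lay above both WT libraries for 44.1% of genes between the 90th and 95th percentiles of counts per kb. The share was 47.2% between the 95th and 99th percentiles and 41.7% above the 99th. The log2 fold change was above 0 for 71.0%, 79.5% and 87.5% of the genes in these ranges. B2m was at the 99.8th percentile of counts per kb of exon, H2-D1 at the 99.1st, H2-K1 at the 98.1st and Tapbp at the 97.3rd, while Nlrc5 was at the 48th. WT replicate 2 held 1.26 times the counts of WT replicate 1 in all, but only 1.06 times for H2-D1, 1.09 times for B2m, 1.10 times for H2-K1 and 1.16 times for Tapbp. Low ratios were not limited to these dense genes, with 0.775 times for Nlrc5 and 0.924 times for Tap1. The ratio was 1.29 for Tap2, 1.34 for H2-M3, 1.37 for H2-T23 and 1.38 for Erap1. A fold change was larger than that of Tapbp in 30.6% of the densest 5% of genes, larger than that of B2m in 20.1%, and larger than those of H2-K1 and H2-D1 in 7.5% and 7.62%. With each library's trend on read density removed, an alternative chosen after these values were seen, the log2 fold change was 0.12 for B2m (SE 0.11, edgeR adjusted p = 0.565), 0.13 for Tapbp (SE 0.10, adjusted p = 0.491), 0.32 for H2-K1 (SE 0.09, adjusted p = 0.187) and 0.30 for H2-D1 (SE 0.10, adjusted p = 0.231). H2-T23, at the 93rd percentile, was at 0.33 in place of 0.47, and its unadjusted p was no longer below 0.05. The other values were 1.71 for Nlrc5, 1.02 for Tap1, 0.91 for H2-M3 and 0.66 for Tap2. The 9 genes were still higher without overlap, where 30.8% of all tested genes were in that fit, and the median of the 10 was 0.32.

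**Figure D3:**
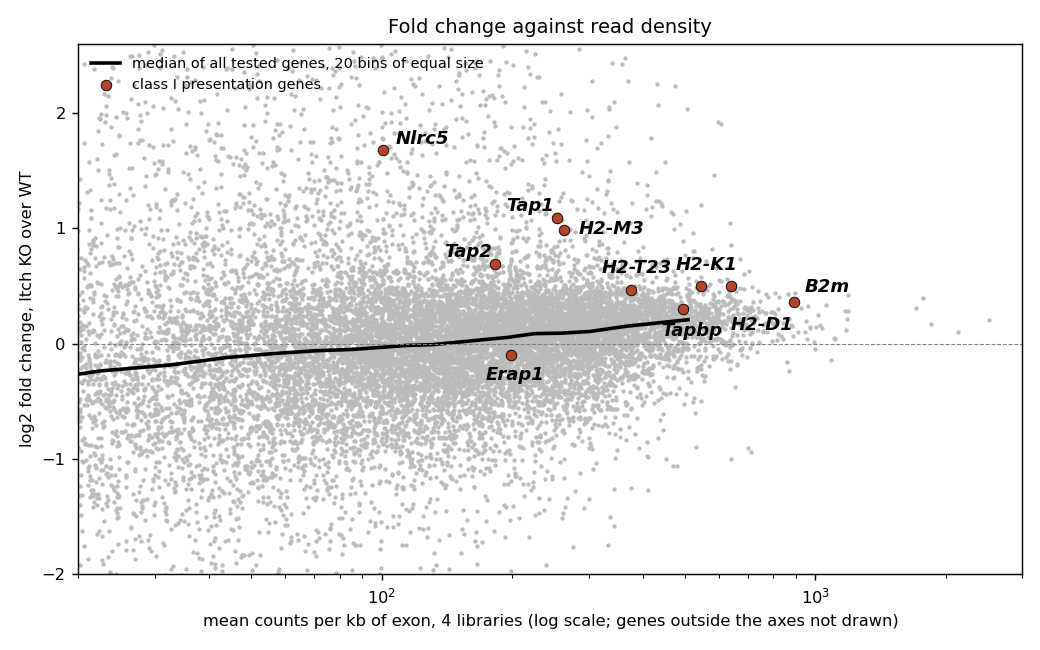
Log2 fold change of Itch KO over WT against mean counts per kb of exon on a log axis, with each tested gene within the axes as a grey point, the median of 20 bins as a line and the 10 class I presentation genes marked. B2m, H2-D1, H2-K1 and Tapbp lie at the dense end, where the line is above 0, and Nlrc5, Tap1, H2-M3 and Tap2 lie well above the line at lower density.

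Genes that surround the 10 in the pathway were taken from lists chosen by function. The immunoproteasome list holds the interferon-inducible catalytic subunits and the PA28 activator, which favour the cutting of peptides fit for class I. Both Itch KO libraries were above both WT libraries for 5 of its 5 genes (30% of all tested genes), and 4 of the 5 had an unadjusted edgeR p below 0.05 (10.2% of all tested genes higher), with a median log2 fold change of 0.64. Psmb9, the neighbour of Tap1, was at 102 and 102 CPM in Itch KO libraries and at 55.2 and 48.0 CPM in WT libraries (log2 fold change 0.99, SE 0.14, edgeR adjusted p = 0.123, DESeq2 adjusted p = 0.00148). Psmb8 had a log2 fold change of 0.77, Psme2 of 0.64, Psmb10 of 0.38 and Psme1 of 0.37. The constitutive subunits that Psmb8, Psmb9 and Psmb10 replace were also higher without overlap, with a log2 fold change of 0.50 for Psmb5, 0.26 for Psmb6 and 0.39 for Psmb7. That is below the value of the replacing subunit for Psmb5 and Psmb6, and not for Psmb7. Psmb9 counts were 1.26 and 1.38 times those of Psmb6, the subunit it replaces, in Itch KO libraries and 0.789 and 0.804 times in WT libraries. For Psmb10 and Psmb7 that ratio overlapped, at 1.26 and 1.19 in Itch KO libraries and 1.20 and 1.27 in WT libraries.

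Among 16 other class I and class I-like chains, 10 were higher and 1 lower without overlap (30% and 26% of all tested genes), and 7 had an unadjusted edgeR p below 0.05 in the upward direction and 1 in the downward (10.2% and 9.52%). DESeq2 called 6 of the 16, all higher (5.47%). H2-Q7, one of the genes of Qa-2, was at 197 and 222 CPM in Itch KO libraries and at 75.9 and 47.4 CPM in WT libraries (log2 fold change 1.76, SE 0.27, edgeR adjusted p = 0.123). H2-Q6, H2-Q10, H2-T10 and H2-T24 had log2 fold changes of 1.49, 1.75, 1.48 and 1.61, all above that of any of the 4 chains described above. H2-Q1 went the other way, at 41.8 and 25.2 CPM in Itch KO libraries and 52.2 and 82.4 CPM in WT libraries (log2 fold change -1.01, SE 0.37, edgeR adjusted p = 0.247). H2-T3, the thymus leukaemia antigen of small intestinal epithelium, was at 3.07 and 12.9 CPM in Itch KO libraries and at 2.77 and 124.8 CPM in WT libraries, so its value rests on WT replicate 2, without which its log2 fold change was 1.53 in place of -2.99.

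Many of these chains are near-copies of each other, and reads that fall in shared stretches may have been split or dropped. Of the 50-base words in annotated transcripts, 26.5% of those of H2-Q7 and 34.97% of those of H2-Q6 also occurred in another gene, as did 53.5% of those of H2-T22 and 50.4% of those of H2-T10. Among the class I chains first described, that share was 12.8% for H2-D1, 9.63% for H2-K1, 14.5% for H2-T23 and 0.576% for H2-M3, and B2m had no shared word. It was 36.4% for H2-Q4 and 19.1% for H2-Q10. The counts of these chains are therefore uncertain to an extent that was not tested.

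Of 7 genes for chaperones and partners of peptide loading, 4 were higher and 1 lower without overlap (30% and 26% of all tested genes). Of these 7, 0 had an unadjusted edgeR p below 0.05 in the upward direction and 1 in the downward (10.2% and 9.52% of all tested genes). The median log2 fold change was 0.20. Calr, Canx, Pdia3 and Tapbpl, which encode calreticulin, calnexin, ERp57 and the tapasin-related protein, were above WT in both Itch KO libraries with log2 fold changes of 0.30, 0.20, 0.31 and 0.27. Lnpep, an endosomal aminopeptidase of cross-presentation, was lower, at 62.05 and 76.0 CPM in Itch KO libraries against 122 and 102 CPM in WT libraries (log2 fold change -0.70, SE 0.17, edgeR adjusted p = 0.168). Among 7 cytosolic peptidases, 1 had an unadjusted edgeR p below 0.05, Thop1 with a log2 fold change of 0.61, a share close to the 10.2% of all tested genes, and Tpp2 was at -0.20.

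Genes that can induce class I transcription were unequal. Of 15 genes of the interferon pathway, 9 were higher and 0 lower without overlap, and DESeq2 called 5 of them, all higher, where 30% of all tested genes were higher without overlap and DESeq2 called 5.47% higher. Ifng encodes interferon gamma, an inducer of class I genes, and stood at 7.62 and 45.5 CPM in Itch KO libraries and at 0.96 and 0.326 CPM in WT libraries. The Itch KO libraries were above the WT libraries and far apart from each other. Irf1 and Irf8 had log2 fold changes of 0.38 and 0.61, and the feedback inhibitor Socs1 one of 2.46. The groups overlapped for Ifngr1, Ifngr2, Ifnar1, Jak1, Jak2 and Irf2, with log2 fold changes from -0.14 to 0.22. The median over the 15 genes was 0.27. The factors that hold NLRC5 at the promoter, together with NF-kB subunits, had a median of 0.06 over 10 genes. In that list Rela was highest at 0.43, and Rfx5, a subunit of the RFX complex, was lowest at -0.29.

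**Figure D4:**
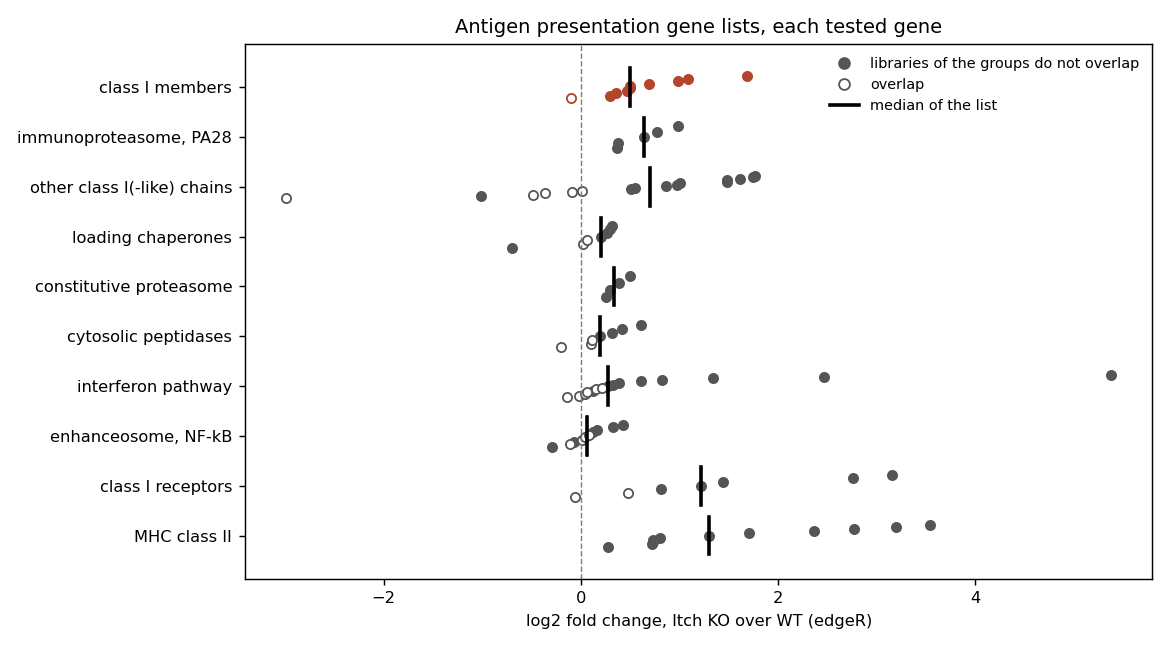
Log2 fold change of Itch KO over WT for every tested gene of 10 antigen presentation lists, with filled points where the libraries of the groups do not overlap and a bar for the median of each list. The class I list and the immunoproteasome list lie mostly between 0.3 and 1.1, the enhanceosome list lies around 0, and the MHC class II list reaches 3.55.

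Class II genes, which are largely limited to professional antigen-presenting cells, had a larger median log2 fold change than class I genes in the same libraries. The median log2 fold change was 1.30 over 11 class II genes, all 11 were higher without overlap (30% of all tested genes), and DESeq2 called 10 of them (5.47%). H2-Ob, a chain of the peptide-exchange regulator of B cells, was at 107.6 and 110.3 CPM in Itch KO libraries and at 8.43 and 10.2 CPM in WT libraries. Ciita, the class II counterpart of Nlrc5, was at 102 and 113 CPM in Itch KO libraries and at 22.5 and 19.1 CPM in WT libraries (log2 fold change 2.37, SE 0.17, edgeR adjusted p = 0.114). The classical chain H2-Ab1 had a log2 fold change of 0.80, between those of H2-K1 and Tap1. The difference between the 2 lists was not tested. Receptors that read class I were higher in part, with Klra2 at 32.8 and 70.4 CPM in Itch KO libraries and at 6.61 and 4.97 CPM in WT libraries. Cd8a, the coreceptor on T cells, was at 24.2 and 32.3 CPM in Itch KO libraries and at 10.3 and 21.7 CPM in WT libraries, and Klrd1, which encodes CD94, overlapped at 9.22 and 14.0 CPM against 8.32 and 16.0 CPM.

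Markers of leukocytes were also higher in Itch KO mucosa. All 5 markers of leukocytes in general were higher without overlap. Of all tested genes 30% were, and the counts of the lists below stand beside the same share. The summed level of the 5 markers was 646 to 761 CPM in Itch KO libraries and 221 to 261 CPM in WT libraries. Ptprc, which encodes CD45, was at 199 and 244 CPM in Itch KO libraries and at 76.2 and 72.6 CPM in WT libraries. B cell markers summed to 647 to 674 CPM in Itch KO libraries and 27.3 to 43.4 CPM in WT libraries (8 of 8 higher without overlap), T cell markers to 263 to 364 against 97.1 to 127 CPM (11 of 11), and macrophage and monocyte markers to 666 to 807 against 317 to 482 CPM (7 of 8). Neutrophil markers summed to 338 to 543 CPM in Itch KO libraries and 13.9 to 122 CPM in WT libraries, with 5 of 6 tested markers higher without overlap. Natural killer markers summed to 108 to 176 CPM in Itch KO libraries and 43.8 to 44.2 CPM in WT libraries, but only 4 of 8 were higher without overlap, and the sum was carried by the granzyme genes Gzma and Gzmb, which cytotoxic T cells also express. The natural killer receptor genes Ncr1, Klrb1c, Klrd1 and Klrk1 overlapped, with log2 fold changes of -0.90, -0.37, -0.06 and 0.48. Prf1 and Eomes were higher without overlap, at 3.16 and 1.36. Dendritic cell markers summed to 119 to 219 CPM in Itch KO libraries and 64.1 to 72.4 CPM in WT libraries, with 4 of 7 higher without overlap, and Xcr1, Clec9a and Zbtb46 overlapped. The sum of colonocyte markers overlapped, at 1388 to 1836 CPM in Itch KO libraries and 1459 to 1851 CPM in WT libraries. So did the sums for goblet cells, endothelium and fibroblasts. Taken singly, 1 of 9 colonocyte and 1 of 6 goblet cell markers were lower without overlap (26% of all tested genes). Higher without overlap were 1 of 6 goblet cell, 1 of 7 endothelium and 1 of 8 fibroblast markers. Squamous epithelium markers summed to 27.6 to 34.7 CPM in Itch KO libraries, 809.97 CPM in WT replicate 1 and 14.2 CPM in WT replicate 2. No listed marker was at 0 in all 4 libraries. The part of these cells in the class I values was not tested, and in bulk mucosa more cells of a type and more RNA per cell cannot be told apart.

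**Figure D5:**
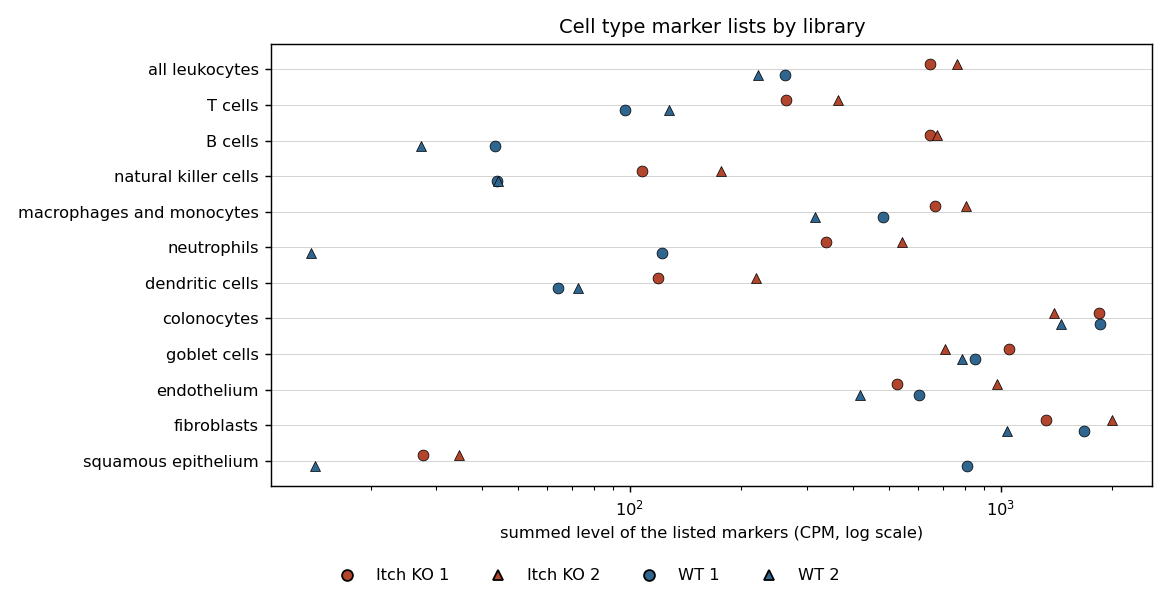
Summed level of 12 cell type marker lists in CPM on a log axis, with 1 point per library. The sums of the leukocyte lists are higher in both Itch KO libraries than in both WT libraries. One by one, only 4 of 8 natural killer and 4 of 7 dendritic cell markers are so, and 30% of all tested genes. The colonocyte sums overlap, and the squamous sum is high in WT replicate 1 alone.

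The genes whose profile over the 4 libraries was most like the median of the 10, among 13365 genes averaging 5 CPM or more, were Smn1, Ranbp1, Hat1, Dscc1 and Manf. Likeness was the root mean square difference of centred log2 levels, which was 0.0236 for Smn1 and 0.0266 for Manf. Smn1 was at 52.7 and 50.2 CPM in Itch KO libraries and at 36.9 and 33.9 CPM in WT libraries. Manf was at 79.3 and 74.6 CPM in Itch KO libraries and at 55.5 and 51.2 CPM in WT libraries. With 4 libraries in 2 groups, many genes share such a profile.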

How the data were processed

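Colonic mucosa of 2 Itch KO and 2 WT libraries was compared, with groups taken from the titles. The deposited files hold raw gene counts. Per the submitters' processing notes the tools were HTSeq 0.6.1, SAMtools 0.1.19, TopHat2 and CASAVA 1.8.2, and the builds GRCm38 and mm10. Whether counting used strand or duplicates were removed is not given in the sources used here. Reads of overlapping genes could not be separated. WT replicate 1 has a shorter list of 19308 genes, and the others have 39179. Only the genes in all 4 files were used, holding 97.3% to 97.7% of the counts of the longer files. Summary lines for reads outside genes (18.2% to 23% of a library) and ambiguous reads (2.67% to 3.03%) were left out.

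Counts were tested with edgeR 4.0.16 (R 4.3.3; TMM, filterByExpr with a minimum count of 10, robust quasi-likelihood fit, group as the only term, two-sided, Benjamini-Hochberg at 0.05, 2 residual degrees of freedom). Standard errors are the log2 fold change divided by the root of F. DESeq2 1.42.0, limma voom 3.58.1 and the settings of the closing section were alternatives. The fits were also run on counts simulated with the spread of these same libraries. That outcome is not given here, and no result rests on it. Exonic length is the union of exons in GENCODE M21 (GRCm38). Promoter sequences are RefSeq's. Likeness of the chains was taken from transcripts in place of the planned protein identities, for which no protein table was used here. Genes were named by a rule that took 67 genes, not all of which are given. The rule takes the 10 genes, Itch, the highest and lowest gene of each pathway list, all of 3 pathway lists, the most abundant gene of each marker list and the 5 nearest profiles. H2-Q1, H2-Q6, H2-Q10, H2-T10, H2-T22, H2-T24, Psmb7, Cd8a, H2-Q4, Ncr1, Klrb1c, Gzma, Xcr1, Clec9a, Zbtb46, H2-Ab1, Ciita, Ghitm, Hspa14 and Per1 were chosen after their values were seen. So were Klrk1, Prf1 and Eomes. The 10 genes and all lists were chosen with earlier results of these data known. H2-Q8, H2-L and Adgre1 were not analysed here.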

Additional observations from a re-analysis of the deposited data

Results flagged for a closer look

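H2-Q5, a class I polymorphic pseudogene, is absent from the gene list of WT replicate 1 and so entered no comparison. In the other 3 libraries it was at 53.0 and 67.5 CPM in Itch KO mucosa and at 11.4 CPM in WT replicate 2, and the Itch KO mean was 5.28 times that value. It was flagged as a signal outside the genes compared that exceeded the WT level, which rests on 1 library. Of 17 names of the H2 region listed in those 3 files alone, 4 reached 10 counts in a library, and H2-K2, H2-T-ps and H2-Q3 did not exceed WT replicate 2 in both Itch KO libraries.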

How the results depend on the processing

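Of 19 alternatives, 14 were planned and 5 were added after seeing the data. With the alternatives other than DESeq2, edgeR and limma voom called 0 genes and 0 of the 10 class I genes. DESeq2 called 1706 genes and 3 of the 10, and 1163 and 2 without WT replicate 1, 886 and 1 without WT replicate 2, 1237 and 2 without Itch KO replicate 1, and 426 and 0 without Itch KO replicate 2. The number of class I genes higher without overlap was 8 with the trend on exonic length removed and 9 in the others. The share of all tested genes was 30% in the main fit and 28.2% with that trend removed. Without 1 library each, where overlap is less likely, it was 39.8% to 41.1% by edgeR and 37.6% to 39.6% by DESeq2. The median log2 fold change of the 10 was 0.38 with the trend on exonic length removed, 0.32 with the trend on read density removed, and 0.44 to 0.66 without 1 library each, with the highest without WT replicate 1, and also 0.64 there by DESeq2. The cause was not tested. Upper quartile and RLE factors, both filters, robust=FALSE and legacy=FALSE changed no call. The log2 fold change of Erap1 was -0.22 to 0.024 without 1 library each, turned without Itch KO replicate 2 (0.011 by DESeq2), and was 0.046 with the trend on exonic length removed. That of H2-T3 was -4.36 to 1.53 without 1 library each, with 1.53 without WT replicate 2 (1.502 by DESeq2). That of Klrd1 was -0.43 to 0.48, with 0.48 without WT replicate 2 and 0.21 without Itch KO replicate 1 (0.45 and 0.20 by DESeq2), and Tpp2 turned to 0.056 with the trend on exonic length removed. Replicate numbers are shared in the labels, but nothing says that they mark shared animals, and deviations of same-numbered libraries correlated at 0.04 over genes. With a replicate block 0 genes and 0 class I genes were called, and the median was 0.50. With 2 libraries a group and 8181193 to 12199709 counts each, an edgeR call was not reached by any gene, Itch included.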

Other observations

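The 25-base spacing of the X2 and Y cores was looked up in all promoter windows after it had been seen in H2-K1, H2-D1, H2-M3 and B2m. It occurred in windows of 15 genes, of which 13 were tested. The other 9 tested genes were not class I genes, and 2 of these 9, Ghitm and Hspa14, were higher without overlap in Itch KO mucosa, where 30% of all tested genes were. Ghitm was at 198 and 169 CPM in Itch KO libraries and at 168 and 163 CPM in WT libraries. Hspa14 was at 74.0 and 67.6 CPM in Itch KO libraries and at 59.1 and 56.1 CPM in WT libraries. Per1, the clock gene, was lower, at 80.7 and 87.3 CPM in Itch KO libraries and at 151 and 146 CPM in WT libraries (log2 fold change -0.82, SE 0.12, edgeR adjusted p = 0.123). Over distances of 15 to 35 bases between the starts of the cores, 25 was the most frequent, with 18 windows, and the next was 17 bases with 11 windows. The 18 windows include those of H2-K1, H2-D1, H2-M3 and B2m, in which the distance was first seen. The rank of 25 bases is therefore not independent of how that distance was chosen.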
